A study of Nicotiana tabacum with 9 samples.

Results

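The chaperone genes *hsp90* (GeneID:107770659), *NtHsp70* (GeneID:107795135) and *BIP2* (GeneID:107805427) and the cell death suppressor gene *BI-1* (GeneID:107793180) were followed in the pollen of tobacco (*Nicotiana tabacum*), as 4 of the 76785 gene identifiers in the tables. They were chosen by values measured in these same libraries, each gene being lower than in WT in at least 1 of the silenced lines. All values of the 4 genes are therefore given as a description, and how many of them passed the threshold is given only beside the share of all genes that did. Pollen was compared between *ATG2*-silenced plants, *ATG5*-silenced plants and wild type (WT) plants of the cultivar Petite Havana SR1, with 3 libraries per genotype and 9 in all. Both silenced lines carry an RNA interference (RNAi) construct, by which the transcript of the named gene is degraded, whereas WT carries none. Both genes serve autophagy, the pathway that delivers cytoplasm to the vacuole for degradation, where the ATG2 protein transfers lipids to the growing autophagosome membrane and ATG5 is joined to ATG12 in the complex that lipidates ATG8. The labels give the stage as bicellular pollen. The promoter of the RNAi constructs and the number of transgenic lines behind the 3 libraries are not given in the sources used here.

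Hsp90 and Hsp70 proteins bind unfolded or immature client proteins and use ATP to help them reach their folded state. BiP is the Hsp70 of the endoplasmic reticulum (ER), where it folds secreted proteins and holds the sensors of the unfolded protein response inactive until misfolded proteins draw it away. BI-1 (Bax inhibitor 1) is a membrane protein of the ER that suppresses cell death under ER stress. A pollen tube secretes wall material in large amounts, and the part of ER folding in its growth was not tested here.

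The exact depth of each library is unknown here, as the paper gives only a lower bound on read pairs that holds for all of them. The deposited values are FPKM, which are fragments scaled by transcript length and by the size of the library. No counts were analysed here. *ATG2* was at 0.233 ± 0.058 FPKM in *ATG2*-silenced pollen and at 1.04 ± 0.14 FPKM in WT pollen, and *ATG5* was at 0.170 ± 0.066 FPKM in *ATG5*-silenced pollen and at 1.38 ± 0.30 FPKM in WT pollen (SD, n = 3 each). In the other line, *ATG2* averaged 0.60 ± 0.044 FPKM (57.7% of WT) with *ATG5* silenced, and *ATG5* averaged 1.53 ± 0.25 FPKM (111% of WT) with *ATG2* silenced (SD, n = 3 each). All 7 pollen marker genes were present, with a summed level of 29550 to 30673 FPKM in *ATG2*-silenced, 41114 to 45094 FPKM in *ATG5*-silenced and 27106 to 28925 FPKM in WT libraries. Of 11 green tissue markers, 10 stayed under 1 FPKM in every library, with sums of 0.9 to 1.5 FPKM in *ATG2*-silenced, 0.12 to 0.62 FPKM in *ATG5*-silenced and 2 to 4.02 FPKM in WT libraries. The 3 style and stigma markers summed to 1.2 to 3.7 FPKM in *ATG2*-silenced, 0.19 to 2.45 FPKM in *ATG5*-silenced and 5.8 to 16.5 FPKM in WT libraries, and the 7 root markers stayed under 1 FPKM throughout. The part of these other tissues in the differences below was not tested. For log2 changes, each library was divided by a scaling factor, which was 1.06 to 1.11 for *ATG2*-silenced, 0.751 to 0.791 for *ATG5*-silenced and 0.978 to 1.04 for WT libraries, and 0.5 was added before the log2, which understates the change of low genes. Without the factors, the median over the 27836 tested genes of the log2 change was 0.13 in *ATG2*-silenced and -0.30 in *ATG5*-silenced against WT pollen, and -0.43 in *ATG5*-silenced against *ATG2*-silenced pollen, while with them it was 0.03, -0.03 and -0.07.

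The 4 genes fell into 3 patterns across the genotypes. *hsp90* and *NtHsp70* were low in both silenced lines, and *BIP2* was low in *ATG5*-silenced pollen while its *ATG2*-silenced and WT libraries overlapped. The FPKM of *BI-1* lay slightly below WT in *ATG2*-silenced pollen, where it did not pass the threshold, and far below WT in *ATG5*-silenced pollen. In FPKM as deposited, the *ATG5*-silenced mean lay between 27.4% (*BIP2*) and 42.2% (*NtHsp70*) of the WT mean. Part of this is shared by most genes, as the median log2 change without the factors was -0.30. After scaling, the drop was smaller, with means in *ATG5*-silenced and WT pollen of 2.92 and 8.34 for *BIP2* and of 67.6 and 124 for *NtHsp70*. In these bulk samples, fewer cells that express a gene and less RNA per cell cannot be told apart.

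**Figure D1:**
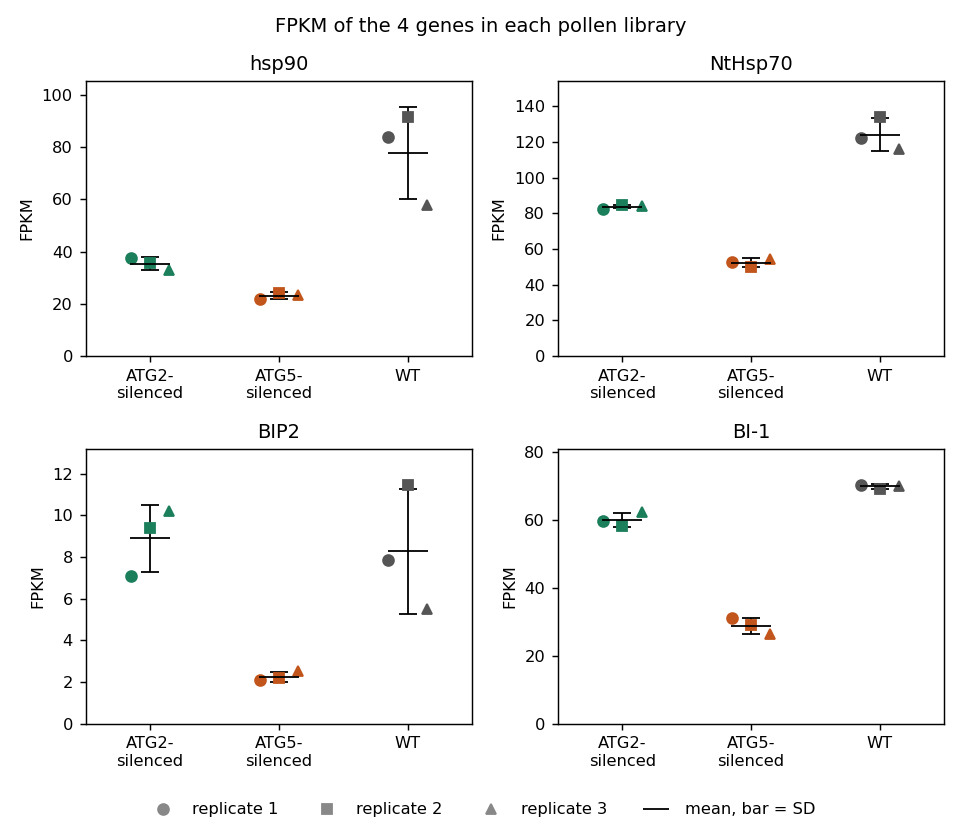
FPKM of *hsp90*, *NtHsp70*, *BIP2* and *BI-1* (vertical axes, linear, from 0) in the 3 libraries each of *ATG2*-silenced, *ATG5*-silenced and WT pollen, where points are libraries, horizontal lines are means and bars are SD. The *ATG5*-silenced libraries lie below all others in each panel, and the *ATG2*-silenced libraries lie below the WT libraries except for *BIP2*.

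*hsp90*, which encodes the chaperone that matures kinases and receptors, was measured at 37.7, 35.6 and 32.9 FPKM in *ATG2*-silenced, at 21.74, 24.22 and 23.19 FPKM in *ATG5*-silenced and at 83.8, 91.58 and 58 FPKM in WT libraries (replicates 1, 2 and 3). No silenced library reached the lowest WT library, and the 2 silenced lines did not overlap either. The means were 35.4 ± 2.41 FPKM in *ATG2*-silenced, 23.1 ± 1.25 FPKM in *ATG5*-silenced and 77.8 ± 17.6 FPKM in WT pollen (SD, n = 3 each), so that 45.5% of the WT mean was left in *ATG2*-silenced and 29.6% in *ATG5*-silenced pollen. The log2 change was -1.23 (SE 0.17) in *ATG2*-silenced and -1.35 (SE 0.17) in *ATG5*-silenced against WT pollen, 2 comparisons that share the WT libraries. Of the tested genes, 0.780% had a lower log2 change than *hsp90* when *ATG2*-silenced pollen was set against WT, and 4.06% when *ATG5*-silenced pollen was. In the same order, the shares were 2.62% and 11.3% for *NtHsp70*, 48.5% and 4.37% for *BIP2* and 8.56% and 10.5% for *BI-1*. By rank of FPKM among all identifiers, *hsp90* stood at positions 2670 to 3077 in *ATG2*-silenced, 3204 to 3337 in *ATG5*-silenced and 1384 to 1966 in WT libraries.

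*NtHsp70*, whose product receives newly made and unfolded proteins upstream of Hsp90, was the most abundant of the 4 genes in every library. It was at 82.7, 84.6 and 84 FPKM in *ATG2*-silenced, at 52.75, 49.69 and 54.64 FPKM in *ATG5*-silenced and at 122.27, 134.16 and 115.9 FPKM in WT libraries. The 3 genotypes formed separate ranges, with the narrowest one in *ATG2*-silenced pollen. The means were 83.8 ± 0.971, 52.4 ± 2.5 and 124 ± 9.27 FPKM in pollen of the *ATG2*-silenced, *ATG5*-silenced and WT plants (SD, n = 3 each). The log2 change was -0.69 (SE 0.083) in *ATG2*-silenced and -0.87 (SE 0.083) in *ATG5*-silenced against WT pollen.

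In these 2 genes the size of the difference between the silenced lines depended on the scaling, though not its direction. Their FPKM was lower in every *ATG5*-silenced than in any *ATG2*-silenced library. After scaling, *hsp90* was at 28.9 to 30.9 in *ATG5*-silenced and at 29.6 to 35.4 in *ATG2*-silenced libraries, which overlap, and *NtHsp70* was at 63.4 to 70.2 in *ATG5*-silenced and at 75.5 to 77.7 in *ATG2*-silenced libraries, which do not. The log2 change of *ATG5*-silenced against *ATG2*-silenced pollen was -0.12 (SE 0.17) for *hsp90* and -0.18 (SE 0.083) for *NtHsp70*, against -0.61 and -0.67 with FPKM as deposited. The median of all tested genes in that comparison was -0.43 without the factors and -0.07 with them, as given above.

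*hsp90* was lowered more than *NtHsp70* in both lines. The ratio of *hsp90* to *NtHsp70* FPKM within a library, which is free of the scaling, was 0.392 to 0.456 in *ATG2*-silenced, 0.412 to 0.487 in *ATG5*-silenced and 0.50 to 0.685 in WT libraries. The silenced lines overlapped in this ratio, and both lay below WT, the nearest WT library being replicate 3.

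*BIP2* was the least abundant of the 4 genes, with 7.1, 9.4 and 10.2 FPKM in *ATG2*-silenced, 2.08, 2.19 and 2.54 FPKM in *ATG5*-silenced and 7.87, 11.47 and 5.5 FPKM in WT libraries. The *ATG2*-silenced libraries lay within the range of the WT libraries, and the *ATG5*-silenced libraries lay below both. The means were 8.9 ± 1.61, 2.27 ± 0.240 and 8.28 ± 3.01 FPKM in pollen of the *ATG2*-silenced, *ATG5*-silenced and WT plants (SD, n = 3 each), and WT had the widest spread. The log2 change was 0.02 (SE 0.24) in *ATG2*-silenced and -1.30 (SE 0.24) in *ATG5*-silenced against WT pollen, and -1.32 (SE 0.24) in *ATG5*-silenced against *ATG2*-silenced pollen. The first of these had no stable sign, since it was -0.26 without WT replicate 3 and 0.28 without WT replicate 2. *BIP2* held ranks 6693 to 8000 in *ATG2*-silenced, 12855 to 13773 in *ATG5*-silenced and 5621 to 9012 in WT libraries.

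*BI-1* was measured at 59.8, 58.2 and 62.3 FPKM in *ATG2*-silenced, at 31.07, 29.08 and 26.35 FPKM in *ATG5*-silenced and at 70.45, 69.22 and 70.2 FPKM in WT libraries. The genotypes did not overlap, and the WT libraries were nearly equal. The means were 60.1 ± 2.07, 28.8 ± 2.37 and 69.96 ± 0.650 FPKM in pollen of the *ATG2*-silenced, *ATG5*-silenced and WT plants (SD, n = 3 each), which left 85.9% of the WT mean in *ATG2*-silenced and 41.2% in *ATG5*-silenced pollen. The log2 change was -0.35 (SE 0.084) in *ATG2*-silenced and -0.91 (SE 0.084) in *ATG5*-silenced against WT pollen, and -0.56 (SE 0.084) in *ATG5*-silenced against *ATG2*-silenced pollen. *BI-1* was above *hsp90* in all silenced libraries, where the ratio of *hsp90* to *BI-1* was 0.528 to 0.630 in *ATG2*-silenced and 0.700 to 0.880 in *ATG5*-silenced pollen, against 0.826 to 1.32 in WT libraries.

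The number of the 4 genes past an adjusted p under 0.05 (limma, Benjamini-Hochberg over all tested genes) is read beside the share of all genes, because the same comparisons were used to choose them. In *ATG2*-silenced against WT pollen *hsp90* and *NtHsp70*, 2 of 4, were lower and none was higher, where 0.410% of all tested genes were lower and 0.672% higher. *BIP2* and *BI-1* did not pass there. In *ATG5*-silenced against WT pollen 4 of 4 were lower, where 24.9% of all tested genes were lower and 27.1% higher. In *ATG5*-silenced against *ATG2*-silenced pollen *BIP2* and *BI-1*, 2 of 4, were lower, where 27.5% of all tested genes were lower and 26.8% higher. The count in *ATG2*-silenced against WT pollen was 0 without *ATG2*-silenced replicate 1 or 2 and 1 (*NtHsp70*) without *ATG2*-silenced replicate 3, WT replicate 1 or WT replicate 2. In *ATG5*-silenced against *ATG2*-silenced pollen the count of 2 was not kept under any of the 3 other scalings, being 4 with FPKM as deposited or rescaled to equal totals and 3 (*NtHsp70*, *BIP2* and *BI-1*) with quantile normalization. With a fold above 2 as a further condition, 0.639% of all tested genes were called in *ATG2*-silenced against WT, 22.3% in *ATG5*-silenced against WT and 24.0% in *ATG5*-silenced against *ATG2*-silenced pollen. Of these calls, in the same order, 75.3%, 65.3% and 59.7% were higher, against 83.7%, 41.9% and 30.0% with FPKM as deposited, 80.1%, 46.2% and 36.3% with equal totals and 70.1%, 54.5% and 52.9% with quantile normalization. The p-values measure only the spread between these libraries.

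The WT libraries differed more among themselves in the 3 chaperone genes than in *BI-1*. On the log2 scale, WT replicates 1, 2 and 3 deviated from the WT mean by 0.16, 0.29 and -0.45 for *hsp90*, by 0.01, 0.15 and -0.16 for *NtHsp70*, by 0.01, 0.53 and -0.55 for *BIP2* and by 0.04, 0.02 and -0.06 for *BI-1*. On this scale WT replicate 3 was thus the lowest WT library for each of the 4 genes, and replicate 2 the highest for the chaperone genes. The table of WT replicate 3 has 1 decimal, like those of the *ATG2*-silenced libraries, whereas the other 5 tables have 2, and the part of this difference in the levels was not tested. Without WT replicate 3, the log2 change of *hsp90* was -1.46 in *ATG2*-silenced and -1.58 in *ATG5*-silenced against WT pollen, and that of *BIP2* was -1.58 in *ATG5*-silenced against WT pollen. Without WT replicate 2, the same changes were -1.09, -1.21 and -1.05. Over all 9 libraries, deviations from the genotype mean correlated at r = 0.78 between *hsp90* and *NtHsp70*, 0.69 between *hsp90* and *BIP2* and 0.78 between *NtHsp70* and *BIP2*, but at 0.02 to 0.27 between *BI-1* and the chaperone genes. These are descriptions over 9 libraries, among which WT replicates 2 and 3 deviate most for *hsp90* and *BIP2*. Outside WT the chaperone genes did not always deviate together. In *ATG2*-silenced replicates 1, 2 and 3, *hsp90* deviated by 0.13, -0.01 and -0.12 but *BIP2* by -0.25, 0.07 and 0.18. In *ATG5*-silenced replicates 1, 2 and 3, *hsp90* deviated by -0.04, 0.06 and -0.02 but *NtHsp70* by 0.06, -0.09 and 0.03. *hsp90* and *NtHsp70* had the same signs in the *ATG2*-silenced libraries.

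**Figure D2:**
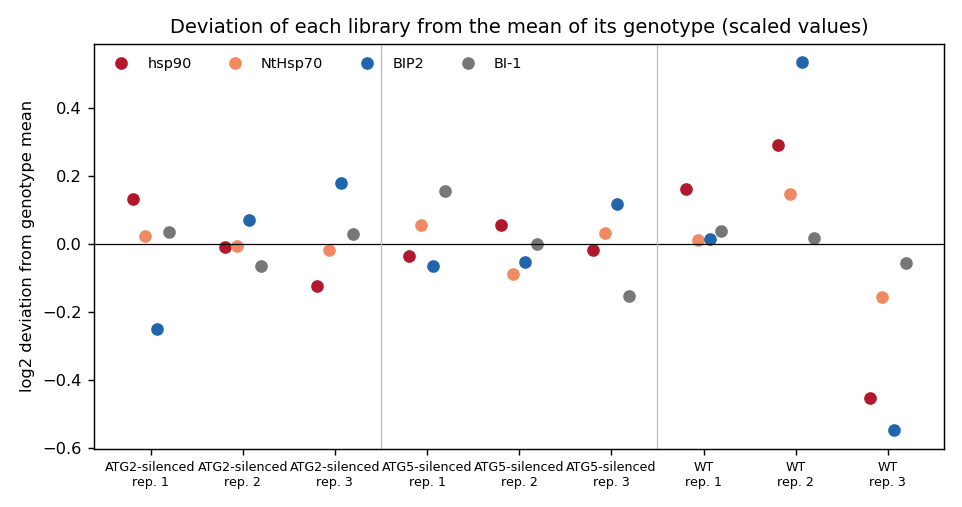
Deviation of the log2 scaled value of each gene from the mean of its genotype (vertical axis) in the 9 libraries (horizontal axis), 1 point per gene and library. *hsp90*, *NtHsp70* and *BIP2* lie above 0 in WT replicate 2 and below 0 in WT replicate 3, where *BI-1* deviates by -0.06.

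Other chaperone and ER stress genes were drawn from the reference by gene symbol, 18 genes besides the 4, of which 13 passed the filter on low values. The lists of symbols were set with earlier results of these data known, so they are no independent check of the 4 genes. None passed in *ATG2*-silenced against WT pollen by limma, with 2 (*PDI* and *HSP70-3*) at an unadjusted p under 0.05, and 1 (*PDI*, log2 change 0.91, adjusted p = 0.0238) passed when *ATG5*-silenced replicate 1 was left out of the shared fit. In *ATG5*-silenced against WT pollen 7 were lower and none higher, with a median log2 change of the 13 genes of -0.49 beside -0.03 for all tested genes. In *ATG5*-silenced against *ATG2*-silenced pollen 7 were also lower and none higher, with a median of -0.67 beside -0.07. The 4 tested cytosolic and organellar chaperone genes among them had medians of 0.08 and 0.09 in these 2 comparisons, with 1 (*HSP70-3*) lower in each. As 24.9% and 27.5% of all tested genes were lower in these comparisons, single genes past the threshold are common in them. Under the alternatives, the count of 7 against WT ranged from 4, without *ATG5*-silenced replicate 1 or without WT replicate 1, to 9 under each of the 3 other scalings. Against *ATG2*-silenced pollen it ranged from 5, without *ATG2*-silenced replicate 3, to 10 with FPKM as deposited.

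**Figure D3:**
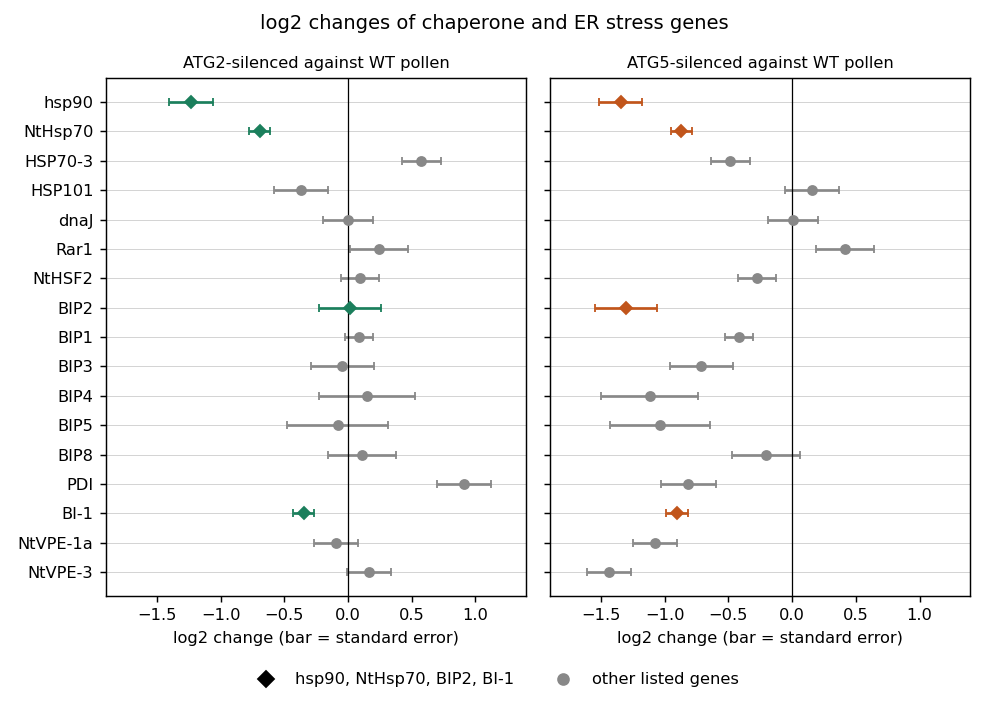
log2 changes with standard errors (horizontal axes) of *hsp90*, *NtHsp70*, *BIP2* and *BI-1* (coloured diamonds) and the 13 other tested chaperone and ER stress genes (grey circles) in *ATG2*-silenced (left) and *ATG5*-silenced (right) against WT pollen, which share the WT libraries. *hsp90* and *NtHsp70* lie below 0 in both panels, and the BIP genes lie near 0 on the left and below 0 on the right.

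Among the ER chaperones, 4 of 6 tested genes were lower in *ATG5*-silenced against WT pollen, where 24.9% of all tested genes were lower. Their median log2 change was -0.76, beside -0.03 for all tested genes. None passed in *ATG2*-silenced against WT pollen, where the median was 0.10, beside 0.03 for all tested genes. RSEM divides reads that map to several genes among them, so where BIP genes share sequence, which was not analysed here, the level of a single one is less certain than their sum. *BIP1*, the most abundant of them, was at 30.4, 35.8 and 36.7 FPKM in *ATG2*-silenced, at 15.99, 18.29 and 16.73 FPKM in *ATG5*-silenced and at 31.06, 31.34 and 26 FPKM in WT libraries. The *ATG5*-silenced libraries lay below all others, and *BIP1* fell by 0.42 on the log2 scale (SE 0.11, adjusted p = 0.0115, limma) against WT. *BIP3* (-0.71, SE 0.25, adjusted p = 0.0363) and *BIP4* (-1.12, SE 0.38, adjusted p = 0.0338) were also lower, though their scaled values overlapped with those of WT replicate 3, and both missed the threshold without the filter on low values (adjusted p = 0.0583 and 0.0518) or when any *ATG5*-silenced library, WT replicate 1 or WT replicate 2 was left out (adjusted p between 0.0542 and 0.109). *BIP5* (-1.04, SE 0.40, adjusted p = 0.0552) and *BIP8* (-0.21, SE 0.27, adjusted p = 0.540) did not pass, but did without WT replicate 3 (adjusted p = 9.62e-04 and 0.0123), and *BIP5* also passed under the 3 other scalings (adjusted p between 0.0143 and 0.0288).

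**Figure D4:**
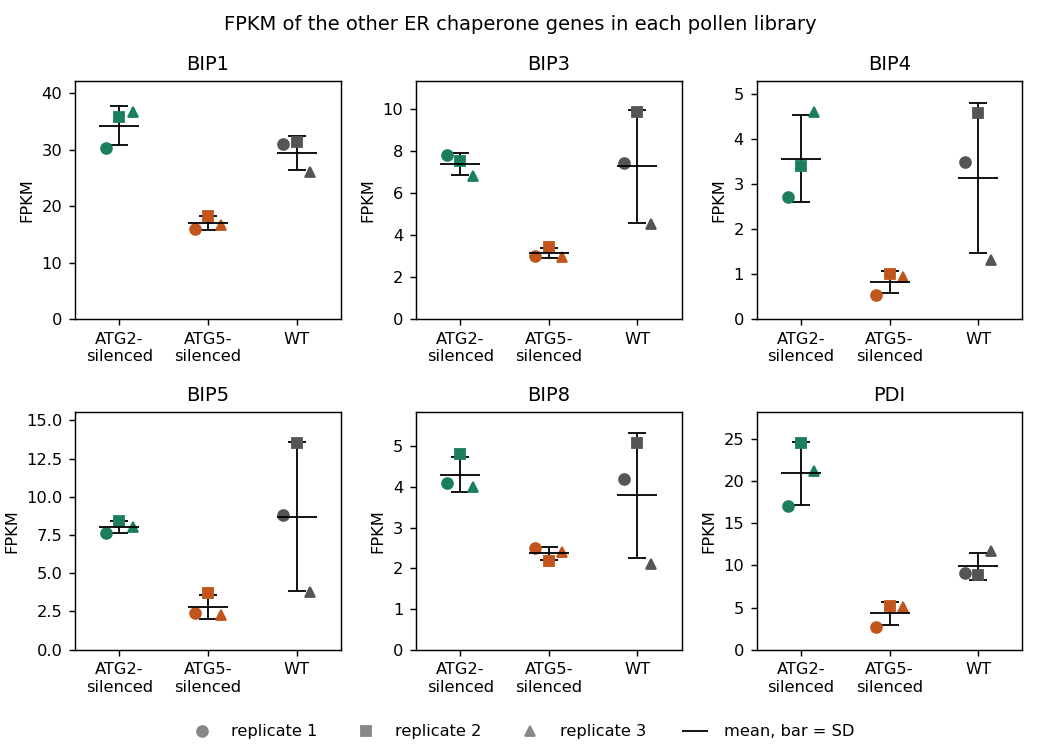
FPKM of *BIP1*, *BIP3*, *BIP4*, *BIP5*, *BIP8* and *PDI* (vertical axes, linear, from 0) in the 3 libraries each of *ATG2*-silenced, *ATG5*-silenced and WT pollen, where points are libraries, horizontal lines are means and bars are SD. WT replicate 3 (triangle) is the lowest WT library for each BIP gene and the highest for *PDI*, which is above WT in all *ATG2*-silenced and below WT in all *ATG5*-silenced libraries.

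The 6 BIP genes with a name, *BIP2* included, summed to 59.7, 69.3 and 70.3 FPKM in *ATG2*-silenced, to 26.49, 30.81 and 27.86 FPKM in *ATG5*-silenced and to 62.86, 75.84 and 43.2 FPKM in WT libraries. The sum thus showed the pattern of *BIP2*, with *ATG2*-silenced libraries inside the WT range and *ATG5*-silenced libraries below it, and averaged 66.4 ± 5.85, 28.4 ± 2.21 and 60.6 ± 16.4 FPKM in pollen of the *ATG2*-silenced, *ATG5*-silenced and WT plants (SD, n = 3 each). *BIP2* made up 11.9% to 14.5% of the sum in *ATG2*-silenced, 7.11% to 9.12% in *ATG5*-silenced and 12.5% to 15.1% in WT libraries, so its share was also smaller in *ATG5*-silenced pollen.

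*PDI*, a protein disulfide isomerase that forms disulfide bonds in the ER, did not follow the BIP genes in *ATG2*-silenced pollen. It was at 17, 24.5 and 21.2 FPKM in *ATG2*-silenced, at 2.71, 5.17 and 5.06 FPKM in *ATG5*-silenced and at 9.08, 8.87 and 11.7 FPKM in WT libraries. Every *ATG2*-silenced library was above, and every *ATG5*-silenced library below, all WT libraries. By limma, *PDI* was lower in *ATG5*-silenced than in WT pollen (log2 change -0.82, SE 0.21, adjusted p = 0.0114) and than in *ATG2*-silenced pollen (-1.73, SE 0.21, adjusted p = 1.80e-04). Its change of 0.91 (SE 0.21) in *ATG2*-silenced against WT pollen did not pass (adjusted p = 0.0812).

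*HSP70-3*, another Hsp70 gene of the reference (GeneID:107766295), was ordered as *PDI* and unlike *NtHsp70*. It was at 8.2, 11.6 and 10.3 FPKM in *ATG2*-silenced, at 2.47, 3.67 and 3.48 FPKM in *ATG5*-silenced and at 5.92, 5.31 and 6.6 FPKM in WT libraries. The 3 genotypes did not overlap, with *ATG2*-silenced pollen highest. *HSP70-3* was lower in *ATG5*-silenced than in WT pollen (log2 change -0.49, SE 0.15, adjusted p = 0.0245, limma) and than in *ATG2*-silenced pollen (-1.06, SE 0.15, adjusted p = 3.98e-04), and its change of 0.58 (SE 0.15) in *ATG2*-silenced against WT pollen did not pass (adjusted p = 0.105). The threshold against WT was missed without *ATG5*-silenced replicate 1, WT replicate 1 or WT replicate 3 (adjusted p = 0.0813, 0.0628 and 0.0672). Within the Hsp70 class, *NtHsp70* thus had a log2 change of -0.69 and *HSP70-3* one of 0.58 in *ATG2*-silenced against WT pollen, a difference that was not tested.

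Of the vacuolar processing enzymes, cysteine proteases that can act in plant cell death, *NtVPE-3* and *NtVPE-1a* were tested and both were lower in *ATG5*-silenced pollen. *NtVPE-3* was at 2.6, 3.4 and 3.7 FPKM in *ATG2*-silenced, at 0.43, 0.59 and 0.45 FPKM in *ATG5*-silenced and at 3.11, 2.32 and 2.3 FPKM in WT libraries. Its log2 change in *ATG5*-silenced pollen was -1.44 (SE 0.17, adjusted p = 1.33e-04, limma) against WT and -1.60 (SE 0.17, adjusted p = 6.96e-05) against *ATG2*-silenced pollen. *NtVPE-1a* averaged 3.43 ± 0.404, 1.04 ± 0.106 and 3.41 ± 0.704 FPKM in pollen of the *ATG2*-silenced, *ATG5*-silenced and WT plants (SD, n = 3 each) and had a log2 change of -1.07 (SE 0.17, adjusted p = 8.21e-04) in *ATG5*-silenced against WT pollen. The *ATG2*-silenced libraries of both genes overlapped with WT.

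The remaining listed genes had low levels. *HSP101*, a disaggregase that dissolves heat-damaged protein, averaged 1.37 ± 0.321, 1.57 ± 0.361 and 1.75 ± 0.306 FPKM in pollen of the *ATG2*-silenced, *ATG5*-silenced and WT plants (SD, n = 3 each), and the genotypes overlapped in FPKM. After scaling, every *ATG5*-silenced library was above every *ATG2*-silenced library. The log2 change of 0.53 (SE 0.21) between these lines did not pass (adjusted p = 0.0598, limma). The heat shock factor gene *NtHSF2* averaged 2.13 ± 0.321, 1.08 ± 0.146 and 1.78 ± 0.166 FPKM in the same order, with a log2 change of -0.28 (SE 0.15, adjusted p = 0.156, limma) in *ATG5*-silenced against WT pollen, which passed under the 3 other scalings (-0.54, -0.49 and -0.42, adjusted p = 0.0113, 0.0226 and 0.0432, with FPKM as deposited, equal totals and quantile normalization). The small heat shock protein gene *Nthsp26a* and *NtbZIP60*, a transcription factor of the unfolded protein response, were listed at 0 in all 9 libraries. The co-chaperone genes *dnaJ* and *Rar1* were under 1 FPKM on average in each genotype and did not pass in any comparison.

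The values of each of the 4 genes were compared with those of the 250 named genes with at least 5 FPKM in 1 group. The measure was Pearson's r of the log2 scaled values over the 9 libraries. The nearest to *hsp90* were *NtHsp70* (r = 0.97), *NtSiR1* (0.96), for sulfite reductase, and the small GTPase gene *Rab2* (0.94). *NtHsp70* was nearest to *hsp90* (0.97), the apyrase gene *APY1* (0.97) and *NtSiR1* (0.96). *BIP2* was nearest to *NTTCTP* (0.96), for the translationally controlled tumor protein, the tubulin gene *TUB6* (0.96) and *BIP1* (0.95), while *BI-1* was nearest to the translation initiation factor gene *eIF(iso)4E* (0.98), *TSS* (0.98) and *CA* (0.97). These values mostly rest on the differences between 3 genotypes. A high r did not mean changes of like size. *NtSiR1* averaged 65.9 ± 1.89, 44.7 ± 1.46 and 71.9 ± 1.10 FPKM in pollen of the *ATG2*-silenced, *ATG5*-silenced and WT plants (SD, n = 3 each). Its *ATG2*-silenced mean was 91.6% of the WT mean, where that of *hsp90* was 45.5%. *eIF(iso)4E* averaged 83.6 ± 5.66, 41.7 ± 1.49 and 94.8 ± 1.68 FPKM, which is 88.2% of the WT mean in *ATG2*-silenced and 44.0% in *ATG5*-silenced pollen, next to 85.9% and 41.2% for *BI-1*.

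**Figure D5:**
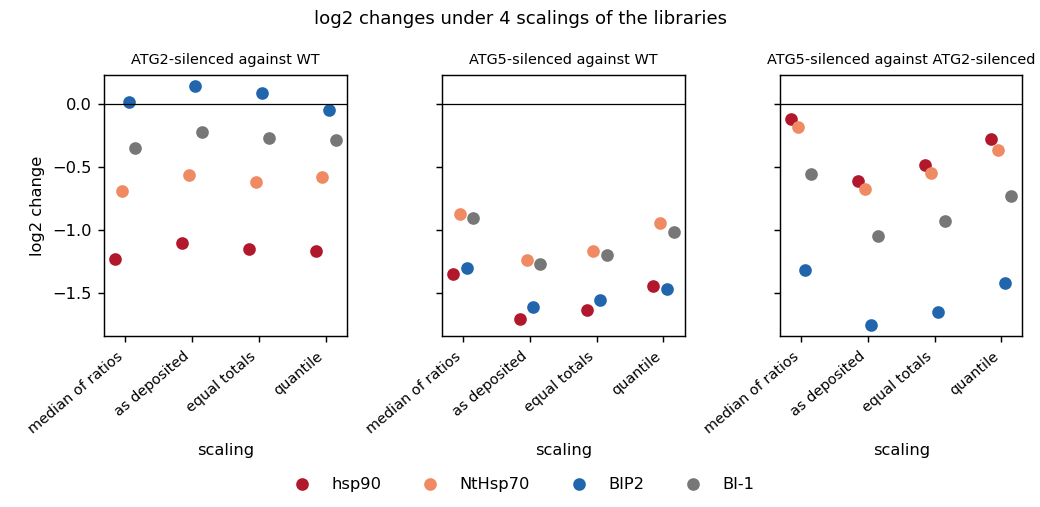
log2 changes (vertical axis) of the 4 genes in the 3 comparisons under 4 scalings of the libraries (horizontal axes): median-of-ratios factors, FPKM as deposited, equal totals and quantile normalization. The points of *ATG5*-silenced against WT and against *ATG2*-silenced pollen stay below 0 in all 4, and *BIP2* in *ATG2*-silenced against WT pollen lies between -0.05 and 0.14.

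The scaling moved the size of the changes but no direction, apart from that of *BIP2* in *ATG2*-silenced against WT pollen, as the plot of the 4 scalings shows. In *ATG5*-silenced against *ATG2*-silenced pollen *BIP2* changed most, then *BI-1*, *NtHsp70* and *hsp90*, in all 4 scalings. All scalings but quantile normalization differ only by a single factor per library, which moves every gene by nearly the same amount. Only quantile normalization could therefore readily have changed this order.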

How the data were processed

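RNA-seq was performed by the authors on pollen of 3 genotypes with 3 libraries each, made from poly(A) RNA and sequenced on the MGIseq2000. Reads were cleaned with SOAPnuke, mapped to the Ntab-TN90 annotation with HISAT2 and Bowtie 2, and quantified with RSEM, in versions not given in the sources used here. Gene levels were deposited as FPKM, which the authors normalized for transcript length and mapped fragments. As no counts were used, the DESeq2 test of the authors was not repeated. Each table held 1 line without a value, which was left out.

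The FPKM were divided by median-of-ratios factors over 14192 genes above 1 FPKM in all libraries, and log2(value + 0.5) was used. A gene was tested if 3 or more of the 9 libraries held 0.5 FPKM or more, which left 27836 genes, all 4 genes of interest among them, in 1 limma 3.58.1 fit (eBayes with trend and robust; R 4.3.3, statmod 1.5.0, jsonlite 2.0.0). Two-sided p-values were adjusted per contrast (Benjamini-Hochberg), and a gene is said to pass, or to be lower or higher, at an adjusted p under 0.05. Only genes described as called also had a fold above 2 or below 0.5. The design text calls the 3 replicates of a genotype independent. The procedure was also run on simulated data with independent noise and changes in a small part of the genes. That setting differs from *ATG5*-silenced against WT pollen, where 24.9% of all tested genes were lower and 27.1% higher. It therefore does not check the scaling there.

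Names came from RefSeq synonyms of assembly ASM71507v2, matched by gene identifier, which name 1081 of the identifiers, so unnamed copies are not covered. The 4 genes and the lists were chosen with earlier results of these data known. The text names the 4 genes, up to 4 genes per list and comparison with the smallest p, and the 3 genes most like each of the 4, while the other list members were chosen after their values were seen. Protein homologs and promoters were not analysed here. Alternatives were 3 scalings, pseudocounts of 0.1 and 1, no filter and a filter of 1 FPKM, each library left out, a replicate block and rounding to 1 decimal. Figures were drawn with Python 3.11.15 and matplotlib 3.10.9.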

Additional observations from a re-analysis of the deposited data

Results flagged for a closer look

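*PDI* and *HSP70-3* had log2 changes of opposite sign in the silenced lines. The log2 change of *PDI* was 0.91 in *ATG2*-silenced against WT and -0.82 in *ATG5*-silenced against WT pollen, and that of *HSP70-3* (the second name of *Hsp70* in the reference) was 0.58 in *ATG2*-silenced against WT and -0.49 in *ATG5*-silenced against WT pollen. For both genes, 3 of 3 *ATG2*-silenced libraries were above and 3 of 3 *ATG5*-silenced libraries below every WT library. Both comparisons share the WT libraries, and neither gene passed the threshold in *ATG2*-silenced against WT pollen. In *ATG5*-silenced against *ATG2*-silenced pollen the log2 change was -1.73 for *PDI* (adjusted p = 1.80e-04, limma) and -1.06 for *HSP70-3* (adjusted p = 3.98e-04). Both genes were flagged for their opposite signs in these same libraries, so these p-values are no independent check. In that comparison 27.5% of all tested genes were lower and 26.8% higher.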

How the results depend on the processing

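Of 180 log2 changes of the 4 genes under the alternatives, 4 changed sign, all of *BIP2* in *ATG2*-silenced against WT pollen. The 180 include the 2 alternative filters and the replicate block, which leave these log2 changes as they are and so could not change a sign. For the log2 changes of single genes, only libraries of the compared genotypes were left out. With FPKM as deposited, the log2 changes were -0.56 (*NtHsp70*) and -0.22 (*BI-1*) in *ATG2*-silenced against WT pollen, -1.71 (*hsp90*), -1.24 (*NtHsp70*) and -1.27 (*BI-1*) in *ATG5*-silenced against WT pollen, and -0.61 (*hsp90*), -0.67 (*NtHsp70*), -1.75 (*BIP2*) and -1.05 (*BI-1*) in *ATG5*-silenced against *ATG2*-silenced pollen. With equal totals they were -1.64 (*hsp90*), -1.17 (*NtHsp70*) and -1.20 (*BI-1*) in *ATG5*-silenced against WT, and -0.48, -0.55 and -0.93 in *ATG5*-silenced against *ATG2*-silenced pollen. With quantile normalization they were -0.58 (*NtHsp70*, *ATG2*-silenced against WT), -1.01 (*BI-1*, *ATG5*-silenced against WT), and -0.36 (*NtHsp70*) and -0.73 (*BI-1*) in *ATG5*-silenced against *ATG2*-silenced pollen. Genes called in *ATG2*-silenced against WT pollen numbered 178, and 54 (without *ATG2*-silenced replicate 1) to 322 (without WT replicate 3) with 1 library left out, being 56, 75, 89 and 72 without *ATG2*-silenced replicates 2 and 3 and WT replicates 1 and 2. Same-numbered libraries of different genotypes did not deviate together (r between -0.04 and 0.05 over 9 pairs), and in 5 of 18 cases a library was nearest to its own number. With the replicate number as a block, 144 genes were called in that comparison, and in *ATG5*-silenced against WT pollen *BIP4* missed the threshold (adjusted p = 0.0512) while *BIP5* passed (0.0285). Values given to 1 decimal limit the precision of genes under 1 FPKM.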
